A study of Mus musculus with 12 samples.

Results

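The expression of 9 genes of the transforming growth factor beta (TGF-beta) family and its pathway was followed in mouse bone marrow-derived macrophages with and without miR-210, before and after polarization with IL-4. The 9 genes are the ligands Gdf3, Gdf15, Inhba and Tgfb1, the receptors Tgfbr1 and Tgfbr2, the signal transducers Smad3 and Smad7, and the target gene Tgfbi. They were chosen by name out of the 56941 genes of the count tables, and the choice was made with earlier results of the same libraries known, among them the difference in Gdf3 between genotypes. The values of these 9 genes are therefore given as a description, with standard errors (SE) and no p-values. Each of the 9 passed the filter on low counts in every comparison. Over the 12 libraries 14825 genes passed it, and fewer passed in the comparisons of 6 libraries.

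The cells came from C57Bl/6J mice, either wild type (WT) or carrying a deletion of miR-210 (KO). The deletion had been made with a floxed miR-210 allele and Gata-1 Cre, and both genotypes came from matings of carriers of 1 deleted allele. The age of the mice is not given in the sources used here. Monocytes were purified from bone marrow by removal of other cell types and cultured for 7 days with conditioned medium of the mouse fibroblast line L929 as a source of M-CSF, and the resulting resting macrophages are called M0. M2 macrophages received 20 ng/ml of IL-4 for a further 72 hours. The paper describes untreated controls whose culture differed from that of M2 cells only by the missing IL-4. It gives no separate harvest time for the sequenced M0 cells. Each of the 4 groups, WT M0, KO M0, WT M2 and KO M2, had 3 libraries of ribosome-depleted total RNA, with totals between 7930525 and 10167695 counts. The labels do not say whether the 3 libraries of a group came from separate animals, so p-values measure the spread between libraries, which may be technical. They also give each group its own batch, so in every comparison below the batch cannot be told apart from the group.

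Reads on the Mir210 gene, which report its precursor, were used to check the labels. Its count was 1, 3 and 5 in WT M0, then 1, 2 and 1 in WT M2, while all 6 KO libraries held 0. A count of 0 allows up to 3 counts in a library, so this check is weak for a single library. Macrophage markers were abundant in all groups. Lyz2, the lysozyme gene, was the most abundant of the 7 with an average normalized count of 42544, and Csf1r, the M-CSF receptor gene, lay between 7120 and 7788 in the 4 group means. With IL-4, edgeR called 1 of the 7 higher and 3 lower in WT cells, beside 23.6% and 21.8% of all eligible genes, and 4 lower and none higher in KO cells, beside 18.1% and 18.5%. Fcgr1, a receptor gene for IgG, went from 4524 to 574.6 in WT and from 3033 to 501.4 in KO, and Mertk, a receptor gene for apoptotic cells, went from 1835 to 725.3 and from 1674 to 896.5. Of the markers of IL-4 polarization, Retnla was at 0 counts in all 6 M0 libraries and averaged 3902 in WT M2 and 3436 in KO M2.

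TGF-beta ligands are secreted as latent dimers and signal, once activated, through pairs of type I and type II receptor kinases. The receptors phosphorylate Smad proteins, which enter the nucleus and switch target genes on or off, and inhibitory Smads and other modulators damp the signal. In macrophages the pathway is known for restraining inflammatory activation and for supporting tissue repair.

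Levels are given as normalized counts, meaning counts divided by the effective library size (TMM) and scaled to the average of the 12 libraries. Changes between groups are log2 fold changes ± SE from edgeR's quasi-likelihood test. Calls were made at an adjusted p under 0.05 with a fold change over 1.2 in either direction. Calls between M0 and M2 were further limited to protein-coding genes whose normalized counts averaged more than 10.

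Between the genotypes, 1 of the 9 genes was called in M0, Gdf3, which was higher in KO cells. Over all 14089 genes tested in M0, 0.22% were called higher and 0.241% lower in KO cells. In M2 cells 2 of the 9 were called, Gdf3 and Tgfbr2, both higher in KO cells, against 0.408% of 13980 genes called higher and 0.572% called lower. More of them were called between M0 and M2. In WT cells 4 of the 9 rose (Gdf3, Inhba, Smad7 and Tgfbi) and 3 fell (Gdf15, Tgfbr2 and Smad3), where 23.6% of 11135 eligible genes rose and 21.8% fell. In KO cells 3 rose (Gdf3, Smad7 and Tgfbi) and the same 3 as in WT cells fell, with 18.5% of 11116 eligible genes rising and 18.1% falling. Since the genes were chosen with such results known, nothing is read from how these counts stand to the background. In the test of the interaction, which asks whether the response to IL-4 differed between genotypes, none of the 9 was called by edgeR, and neither was any of the 14825 genes tested (0%). At an unadjusted p under 0.05 there were 1327 genes, and the DESeq2 Wald test called 74, none of the 9 among them. Each group enters both a genotype comparison and a polarization comparison, so these share libraries.

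**Figure D1:**
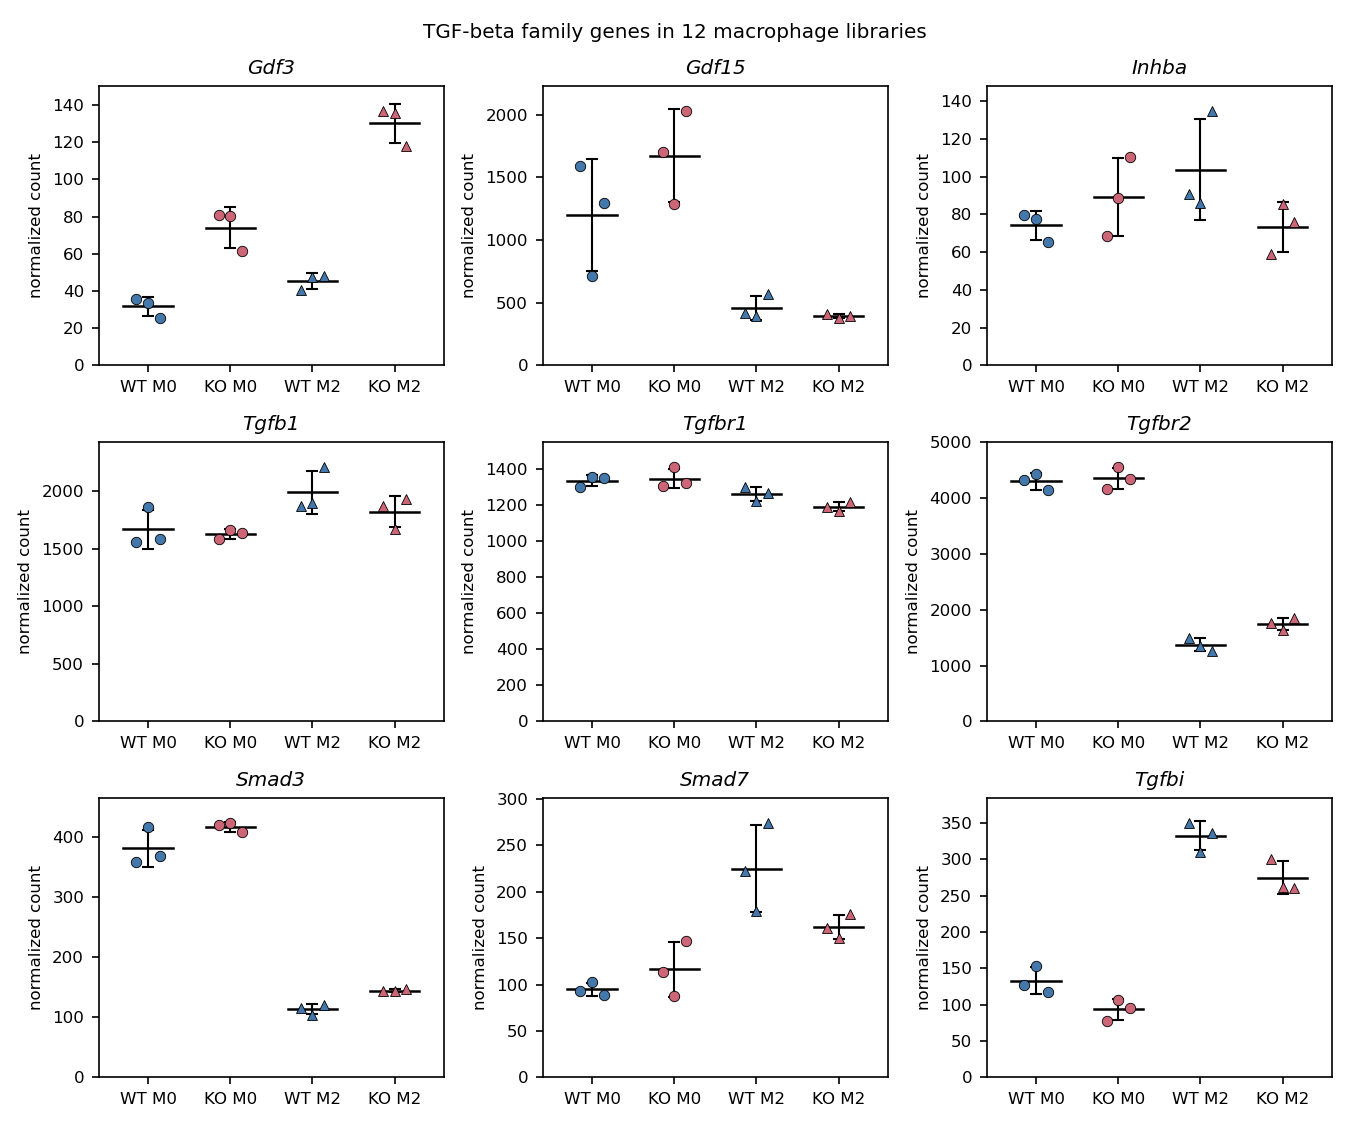
Normalized counts (y axis, from 0) of the 9 genes in the 3 libraries of each group (x axis). Points are libraries, blue for WT and red for KO, circles for M0 and triangles for M2, and lines with bars give the mean and SD. Gdf3 was higher in all KO libraries than in any WT library, and Tgfbr2 and Smad3 were lower in all M2 libraries than in any M0 library.

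Gdf3 encodes growth differentiation factor 3, a ligand that acts through activin-type receptors. The gene lies on chromosome 6 of GRCm39, at chr6:122582317-122587197 on the minus strand. Its normalized counts were 35.7, 33.7 and 25.7 in the WT M0 libraries and 80.7, 80.2 and 61.3 in the KO M0 libraries. With IL-4 they were 40.6, 47.7 and 48.2 in WT M2 and 136.5, 135.5 and 117.9 in KO M2. The lowest KO library, in M0, stood above the highest WT library, in M2. The fitted difference between KO and WT was 1.23 ± 0.21 on the log2 scale in M0, a 2.34-fold higher level, and 1.52 ± 0.14 in M2, a 2.86-fold higher level. The call in M2 was kept whichever library was left out. The call in M0 was lost when KO library 1 or 2, or WT library 1 or 3, was left out, with fitted differences between 1.09 and 1.34. The paper also measured Gdf3 by RT-qPCR in a separate batch. It reports the same trend there, without a significant difference. The M2 against M0 change was 0.54 ± 0.20 in WT cells and 0.81 ± 0.15 in KO cells, and the difference between these changes, 0.28 ± 0.25, was about the size of its error. In WT cells that call was lost with the DESeq2 Wald test and in a fit with the library number as a replicate block. It was lost when WT M0 library 3 or any of the 3 WT M2 libraries was left out, with changes between 0.39 and 0.62.

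A microRNA represses its targets mainly by pairing of its bases 2 to 8, the seed, with sites in the 3′ untranslated region (3′ UTR) of an mRNA. For this reason the seed of miR-210-3p, a mature strand of the deleted miR-210, was searched for in the 3′ UTRs of the 9 genes. The seed of the other mature strand, miR-210-5p, was not searched for. The mature strand miR-210-3p (RefSeq, GRCm38.p6, chr7:141221407-141221428, minus strand) is printed with its seed in capitals, and below it stands the stretch of the Gdf3 3′ UTR (GENCODE, GRCm39, chr6:122582851-122582878, minus strand) whose capitals, ACGCACA, are the reverse complement of that seed.
miR-210-3p: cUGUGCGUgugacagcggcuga
Gdf3 3′ UTR: caggctaacctcaaACGCACAagagatc
The match starts at base 401 of the 948 bases of the Gdf3 3′ UTR, in the last part of the transcript after the stop codon, and an A follows it, opposite base 1 of the microRNA. None of the other 8 genes had these letters in the 3′ UTR of its canonical transcript, on the transcribed strand. Their 3′ UTRs were between 138 bases (Tgfb1) and 6085 bases (Tgfbr2) long. ACGCACA occurred in 469 of 11244 tested genes with an annotated 3′ UTR, or 4.17%. Genes with a match had longer 3′ UTRs, with a median of 3098 bases against 1348 bases for all tested genes. In M2 cells 4 of the 460 tested genes with a match were called higher in KO cells (Gdf3, Mmd, Sft2d2 and Ulbp1) and 1 was called lower, beside 46 higher and 68 lower of 10514 genes without a match. The median difference of the 460 was 0.02 on the log2 scale. In M0 cells 3 of 453 were called higher (Gdf3, Gsr and Mmd) and none lower, with a median of 0.0029, beside 23 higher and 24 lower of 10451 genes without a match. A match in these letters is a description of the sequence, and pairing or repression was not measured.

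Of the 58 tested genes of the pathway lists described below that have an annotated 3′ UTR, 5 held the match. Besides Gdf3 these were Acvr1b and Bmpr2, which encode a type I and a type II receptor, Zfyve9, which encodes a Smad anchor, and Usp15, which encodes a deubiquitinase of the pathway. None of the other four was called between genotypes. The difference between KO and WT in M2 was 0.03 ± 0.07 for Acvr1b, 0.09 ± 0.06 for Bmpr2, 0.45 ± 0.21 for Zfyve9 and 0.03 ± 0.07 for Usp15, all on the log2 scale. In M0 it was 0.10 ± 0.09 for Acvr1b, -0.0042 ± 0.098 for Bmpr2, 0.0058 ± 0.25 for Zfyve9 and -0.15 ± 0.10 for Usp15.

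Gdf15 encodes growth differentiation factor 15, a stress-induced member of the family that acts on the brain through the receptor Gfral. Its level spread most among the M0 libraries, with normalized counts of 1591, 715.7 and 1299 in WT M0 and 1703, 1286 and 2027 in KO M0. In M2 the libraries held 417.4, 391.3 and 571.8 in WT and 412.8, 380.9 and 392.4 in KO. Every M2 library lay below every M0 library, while the genotypes overlapped in both states. Gdf15 fell by 1.38 ± 0.23 on the log2 scale with IL-4 in WT cells and by 2.08 ± 0.14 in KO cells. The difference between these changes was -0.70 ± 0.32 and was not called. KO and WT differed by 0.48 ± 0.24 in M0 and by -0.21 ± 0.11 in M2, neither of them called. Library 2 was the lowest in both M0 groups, at 715.7 in WT and 1286 in KO. Leaving out 1 library at a time moved the M0 difference between 0.22 and 0.73, without a call. It was called without a filter on low counts and with the library number as a replicate block. Gfral itself had no counts in any library.

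Inhba encodes the beta A subunit that forms activin A. Its normalized counts were 79.5, 77.7 and 65.3 in WT M0, 68.6, 88.8 and 110.1 in KO M0, 90.7, 85.9 and 134.5 in WT M2, and 58.8, 85.3 and 76.0 in KO M2. All WT M2 libraries were above all WT M0 libraries, whereas KO M2 and KO M0 overlapped. Inhba rose by 0.49 ± 0.18 on the log2 scale in WT cells and changed by -0.28 ± 0.20 in KO cells, where it was not called. The difference between these changes was -0.76 ± 0.29 and was not called, so a response that differs between genotypes is not shown. The rise in WT cells was lost as a call with the DESeq2 Wald test and with the library number as a replicate block. It was also lost in the fit of all 12 libraries. Leaving out WT M0 library 1 or 3 or WT M2 library 3 ended it too, with changes between 0.26 and 0.61.

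Tgfb1, the gene of the TGF-beta 1 ligand, held normalized counts of 1558, 1865 and 1584 in WT M0 and 1583, 1659 and 1638 in KO M0. In M2 the counts were 1873, 1892 and 2205 in WT and 1866, 1667 and 1930 in KO. It was called in none of the 5 comparisons. The change with IL-4 was 0.26 ± 0.09 on the log2 scale in WT cells, or 1.196-fold, just under the limit of 1.2, and 0.16 ± 0.08 in KO cells. In WT cells it was called without a filter on low counts and when WT M0 library 2, or WT M2 library 1 or 2, was left out, with changes between 0.18 and 0.35. KO and WT differed by -0.04 ± 0.09 in M0 and by -0.12 ± 0.07 in M2.

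Of the receptors, Tgfbr2 was called between M0 and M2 in both genotypes and Tgfbr1 in neither. Tgfbr2, the type II receptor that binds TGF-beta, held 4330, 4429 and 4140 normalized counts in WT M0 and 4171, 4552 and 4340 in KO M0. After IL-4 it held 1496, 1351 and 1266 in WT M2 and 1761, 1630 and 1851 in KO M2. The M0 libraries of the genotypes overlapped, and all KO M2 libraries were above all WT M2 libraries. Tgfbr2 fell by 1.64 ± 0.07 on the log2 scale in WT cells and by 1.32 ± 0.08 in KO cells. KO against WT gave 0.02 ± 0.08 in M0 and 0.35 ± 0.07 in M2, a 1.28-fold higher level that was called. That call was lost in the fit of all 12 libraries and when KO M2 library 1 or WT M2 library 2 or 3 was left out, with differences between 0.30 and 0.42. The interaction was 0.33 ± 0.10 and was not called.

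Tgfbr1 encodes the type I receptor kinase that pairs with it. Its normalized counts were 1302, 1358 and 1350 in WT M0, 1308, 1411 and 1327 in KO M0, 1301, 1223 and 1268 in WT M2, and 1191, 1167 and 1220 in KO M2. The KO M2 libraries were the lowest and did not overlap any other group. No comparison called Tgfbr1, and the largest of its 4 changes between groups, M2 against M0 in KO cells, was -0.18 ± 0.07 on the log2 scale.

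Smad3, a receptor-activated Smad that carries the signal of TGF-beta and activin, held 358.2, 416.3 and 368.6 normalized counts in WT M0 and 419.5, 422.4 and 407.7 in KO M0. In M2 these became 115.3, 104.0 and 121.1 in WT and 143.1, 143.1 and 147.4 in KO. It fell by 1.75 ± 0.10 on the log2 scale in WT cells and by 1.53 ± 0.09 in KO cells. In M2 all KO libraries were above all WT libraries, by 0.36 ± 0.11, a difference that was not called. In M0 the genotypes overlapped, with a difference of 0.13 ± 0.09.

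Smad7 encodes an inhibitory Smad that blocks the receptors and is itself a target of the pathway. It held 93.3, 102.9 and 89.2 normalized counts in WT M0, 114.0, 87.9 and 147.0 in KO M0, 222.1, 179.4 and 273.6 in WT M2, and 160.9, 149.7 and 175.8 in KO M2. All WT M2 libraries were above all others. Smad7 rose by 1.24 ± 0.15 on the log2 scale in WT cells and by 0.48 ± 0.17 in KO cells. The rise in KO cells was not called by the DESeq2 Wald test, nor when KO M0 library 1 or 2 or any of the 3 KO M2 libraries was left out, with changes between 0.30 and 0.67. The difference between the 2 responses was -0.76 ± 0.25 and was not called. KO against WT was 0.29 ± 0.19 in M0 and -0.46 ± 0.14 in M2, and neither was called. The difference in M2 was called without a filter on low counts and with the library number as a replicate block. It was also called when WT M2 library 2 was left out, with values between -0.61 and -0.30 over the libraries left out.

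Tgfbi, a secreted matrix protein named for its induction by TGF-beta, held 126.7, 153.4 and 117.7 normalized counts in WT M0 and 77.7, 106.9 and 95.6 in KO M0. After IL-4 it held 349.1, 310.1 and 336.4 in WT and 300.7, 261.5 and 260.9 in KO. KO libraries lay below WT libraries without overlap in both states. The log2 difference was -0.50 ± 0.16 in M0 and -0.27 ± 0.09 in M2, and neither was called. Tgfbi rose with IL-4 in both genotypes, by 1.32 ± 0.11 in WT cells and by 1.55 ± 0.13 in KO cells.

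**Figure D2:**
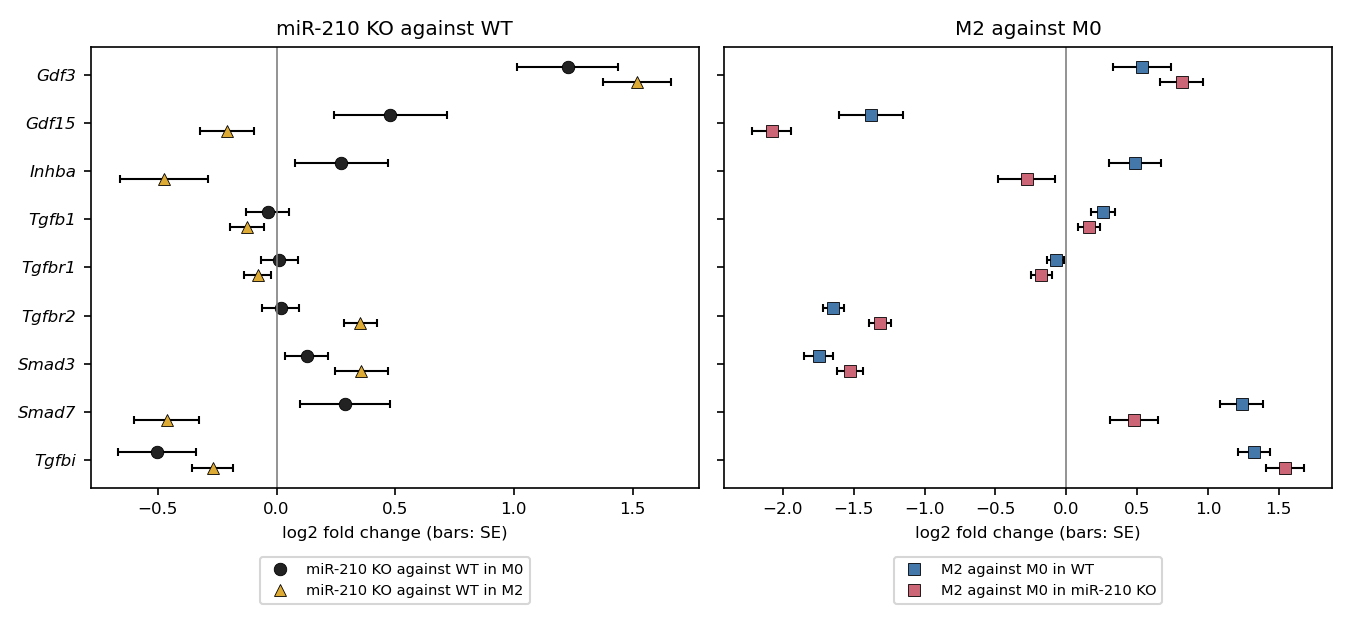
Log2 fold changes (x axis) with SE bars of the 9 genes (y axis). The left panel shows KO against WT in M0 (black circles) and in M2 (yellow triangles), and the right panel M2 against M0 in WT (blue) and KO (red); Gdf3 stands at 1.23 and 1.52 on the left, and Tgfbr2 and Smad3 between -1.75 and -1.32 on the right.

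Levels of different genes can be compared only per transcript length, and for this the normalized count was divided by the length of the canonical transcript in kilobases. In WT M0 the order was Tgfb1 (754 ± 77 per kilobase, SD, n = 3), Gdf15 (627 ± 233), Tgfbr2 (507 ± 17), Tgfbr1 (229 ± 5.3), Smad3 (72.03 ± 5.9), Tgfbi (48.3 ± 6.8), Smad7 (21.1 ± 1.6), Gdf3 (13.7 ± 2.3) and Inhba (12.3 ± 1.3). Tgfb1, Gdf15 and Tgfbr2 overlapped their neighbours in this order, and so did Gdf3 and Inhba. In KO M2 the order of the lower genes was Tgfbi (100.0 ± 8.3 per kilobase), Gdf3 (56.0 ± 4.5), Smad7 (36.0 ± 2.9), Smad3 (27.3 ± 0.47) and Inhba (12.2 ± 2.2), with no overlap between neighbours. In WT M2 the means of Smad3 (21.4 ± 1.6), Gdf3 (19.6 ± 1.8) and Inhba (17.2 ± 4.5) followed each other and their libraries overlapped, so Gdf3 had no resolved place among these 3. In KO M2 it stood sixth of the 9, above Smad7 and Smad3 without overlap. Gdf15, Tgfbr2 and Tgfbr1 were level with each other in KO M2, at 206 ± 8.4, 206 ± 13 and 204 ± 4.6 per kilobase.

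**Figure D3:**
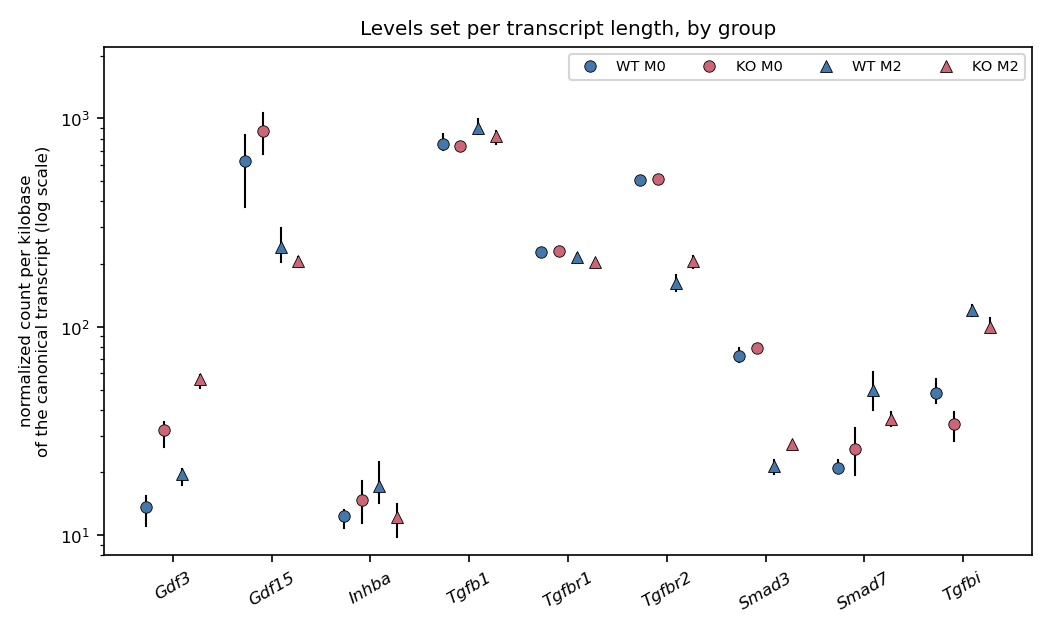
Normalized counts per kilobase of the canonical transcript (y axis, log scale) of the 9 genes (x axis) in the 4 groups. Symbols are means of 3 libraries and vertical lines run from the lowest to the highest library; Gdf3 moves from 13.7 in WT M0 to 56.0 in KO M2, while Tgfb1 stays between 734 and 899.

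The rest of the pathway was described with 7 lists drawn up by function, which hold 102 genes, the 9 included. The count tables contain 101 of them, and 60 passed the filter over the 12 libraries. Many ligands were at or near 0. In the list of 16 ligands of the BMP and GDF branch, Bmp2 and Amh passed the filter, and in the list of 16 ligands of the TGF-beta and activin branch 7 passed (Tgfb1, Tgfb3, Inhba, Lefty1, Gdf3, Gdf9 and Gdf15). Inha, Mstn, Lefty2, Gdf1, Bmp4, Bmp7 and Gdf2 had no counts in any of the 12 libraries. Among other genes of the lists, Nrros, whose protein holds latent TGF-beta on macrophages, had the highest counts in M0, with means of 6502 in WT and 6611 in KO. In M2 the means of Nrros were 7514 and 7810.

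Between the genotypes, 2 of 47 tested genes of the lists outside the 9 were called in M0, both higher in KO cells. In M2, 1 of 43 was called higher and 1 lower. In M0 these are shares of 4.26% higher and 0% lower, beside 0.22% and 0.241% of all genes tested, and in M2 2.33% in each direction beside 0.408% and 0.572%. The lists were drawn up with earlier results known and these shares rest on 1 or 2 genes, so nothing is read from them. The medians of these 47 and 43 genes were 0.02 and -0.01 on the log2 scale, beside 0.0005 and 0.002 for all genes tested in the same comparisons. The medians of single lists, the 9 genes included, rest on few genes, and a difference between lists was not tested. In M0 the list medians ran from -0.21 in the 2 tested BMP and GDF ligands to 0.30 in the 7 ligands of the TGF-beta and activin branch and 0.33 in the 14 known target genes. In M2 they ran from -0.12 in 5 ligands of the TGF-beta and activin branch to 0.17 for the 1 tested BMP or GDF ligand, with -0.05 in 11 target genes. Of the called genes, Mmp14 in M0 and Lrrc32 and Strap in M2 are described here.

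Mmp14 encodes a membrane-bound metalloproteinase that can release TGF-beta from its latent form. Its normalized counts were 413.5, 423.8 and 356.7 in WT M0 and 599.0, 606.0 and 561.1 in KO M0, a difference of 0.57 ± 0.09 on the log2 scale (edgeR adjusted p = 0.0277). In M2 the counts were 295.7, 315.9 and 390.2 in WT and 304.1, 300.3 and 275.6 in KO, which overlapped. Leaving out KO M0 library 1 or 3 or WT M0 library 1 or 3 ended the M0 call, with differences between 0.49 and 0.63. The interaction was -0.75 ± 0.14, not called by edgeR (adjusted p = 0.0951). The DESeq2 Wald test did call it, and Mmp14 was the 1 gene of the lists for which it did so. With edgeR it was called without a filter on low counts and when WT M0 library 2 or KO M0 library 2 was left out, with values between -0.83 and -0.63.

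The called genes in M2 were Lrrc32 and Strap. Lrrc32 encodes GARP, which tethers latent TGF-beta to the cell surface. Its normalized counts in M2 were 986.5, 975.3 and 1321 in WT and 806.7, 736.1 and 739.5 in KO, without overlap. KO against WT was -0.52 ± 0.10 on the log2 scale (edgeR adjusted p = 0.0167). The call was lost without KO M2 library 1 or 2, with differences between -0.60 and -0.36. Strap encodes a protein that binds the TGF-beta receptors and inhibits signalling. It held 859.4, 911.3 and 826.3 in WT M2 and 1093, 1091 and 1021 in KO M2, a difference of 0.31 ± 0.06 (edgeR adjusted p = 0.0273). The call was lost in the fit of all 12 libraries and without WT M2 library 1 or 3 or KO M2 library 1 or 2, with differences between 0.28 and 0.34. In M0 the difference in Strap was 0.49 ± 0.09, with an edgeR adjusted p of 0.0515. It was called by the DESeq2 Wald test, without a filter on low counts and in the fit of all 12 libraries. The replicate block called it too, as did leaving out WT M0 library 2 or KO M0 library 2, with differences between 0.44 and 0.58.

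**Figure D4:**
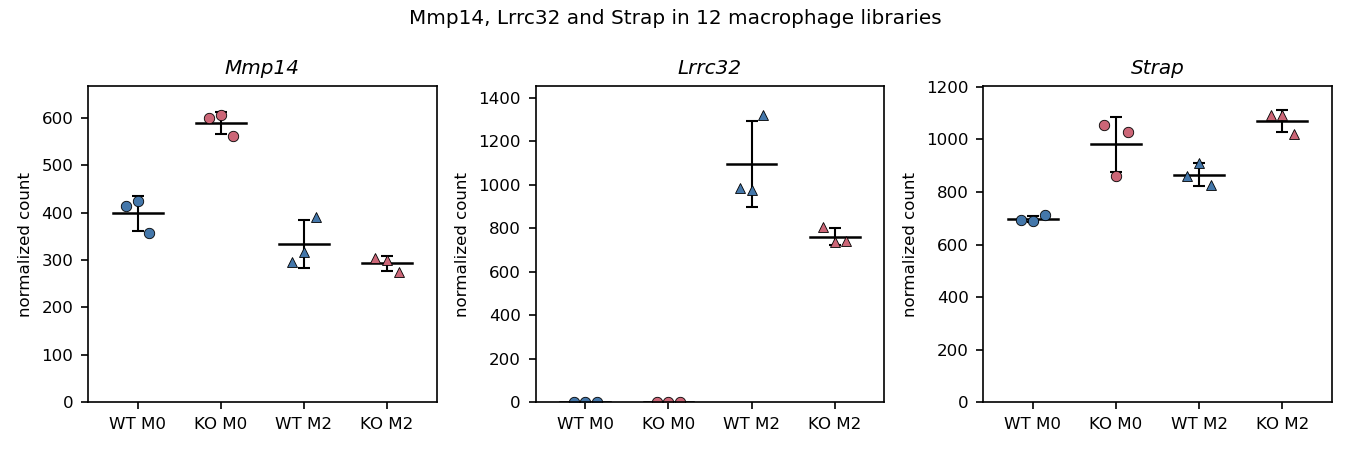
Normalized counts (y axis, from 0) of Mmp14, Lrrc32 and Strap in the 3 libraries of each group (x axis), with symbols as in the plot of the 9 genes. Mmp14 is higher in KO M0 than in WT M0 and overlaps between genotypes in M2, and Lrrc32 is at 3 counts or fewer in every M0 library.

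With IL-4, 12 of 46 eligible genes of the lists outside the 9 rose and 10 fell in WT cells, shares of 26.1% and 21.7% beside 23.6% and 21.8% of all eligible genes. In KO cells 11 of 46 rose and 11 fell, 23.9% each beside 18.5% and 18.1%, and nothing particular to the lists is read from these counts. The median change of the 47 and 49 genes tested was 0.0002 in WT and -0.05 in KO cells on the log2 scale, beside -0.001 and -0.008 for all genes tested. The raw count of Lrrc32 was 1, 2 and 1 in WT M0, and it was 2, 3 and 2 in KO M0, and the means in M2 were 1094 and 761 normalized counts. Summed over the libraries of a group and set per effective library size, the M2 level was 821 times that of M0 in WT cells, with an exact 95% interval from 320 to 3016. In KO cells it was 354 times, with an interval from 171 to 881, and these intervals cover counting error only. Itgb8, the integrin subunit that activates latent TGF-beta, rose from 4.09 ± 1.53 to 151 ± 19 (SD, n = 3) in WT cells. In KO cells it had 1, 2 and 3 counts in the M0 libraries and reached 149 ± 7.2 in M2, a ratio of 80.8 with an interval from 36.8 to 221. Ltbp3, a latent TGF-beta binding protein, rose by 1.11 ± 0.08 on the log2 scale in WT and by 0.95 ± 0.10 in KO cells. Itgav, which pairs with Itgb8, fell by 0.29 ± 0.07 and fell by 0.37 ± 0.09, and its WT call was lost without WT M0 library 1 or WT M2 library 2, with changes between -0.33 and -0.23.

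Among the modulators, Pmepa1, which sequesters receptor-activated Smads, rose by 4.36 ± 0.18 on the log2 scale in WT and by 4.28 ± 0.15 in KO cells. Its group means went from 14.8 to 299.5 normalized counts in WT and from 15.7 to 307 in KO. Bambi, a receptor without a kinase domain that competes with type I receptors, rose by 1.53 ± 0.13 and by 1.37 ± 0.17. Smurf1, a ubiquitin ligase of Smads and receptors, rose by 0.98 ± 0.08 and by 0.80 ± 0.11. Skil, a co-repressor of Smads, fell by 0.64 ± 0.08 and by 0.60 ± 0.16.

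In the list of 8 Smads, Smad7 alone rose in both genotypes, and Smad3, Smad6 and Smad1 fell in both. In each genotype 14.3% of the 7 eligible rose and 42.9% fell. Of all eligible genes, 23.6% rose and 21.8% fell in WT cells, and 18.5% rose and 18.1% fell in KO cells. Nothing particular to the list is read from these shares. Smad1, which carries BMP signals, fell by 0.46 ± 0.08 on the log2 scale in WT and by 0.35 ± 0.08 in KO cells. The inhibitory Smad6 fell by 0.99 ± 0.25 and by 1.33 ± 0.23, from 37.0 to 18.4 normalized counts in WT and from 50.6 to 20.0 in KO. Of the ligands, Bmp2 fell by 0.78 ± 0.16 and by 0.69 ± 0.13, and Lefty1, an inhibitory ligand, fell by 1.29 ± 0.33 in WT and fell by 1.60 ± 0.33 in KO cells, the WT change not being called by the DESeq2 Wald test.

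The list of 17 known target genes, Tgfbi and Smad7 included, held genes called in both directions. In WT cells 7 of the 13 eligible rose and 5 fell, shares of 53.8% and 38.5% beside 23.6% and 21.8% of all eligible genes. In KO cells 4 of 14 rose and 6 fell, shares of 28.6% and 42.9% beside 18.5% and 18.1%, and nothing particular to the list is read from them. Fn1, fibronectin, had the largest increase, from 19.5 ± 8.1 to 16573 ± 1138 normalized counts in WT (SD, n = 3) and from 26.7 ± 4.4 to 16040 ± 2426 in KO. Id1, a target of BMP signals, fell by 2.05 ± 0.38 on the log2 scale in WT and fell by 2.33 ± 0.38 in KO cells. Its counts in WT M2 were 13, 3 and 5, and without WT M2 library 1 the WT change was -2.86. Acta2, smooth muscle actin, fell by 1.44 ± 0.44 and by 1.39 ± 0.36, from 19.1 to 7.01 normalized counts in WT and from 25.0 to 9.21 in KO, and its fall in WT was not called by the DESeq2 Wald test. Its counts in WT M2 were 1, 8 and 11, and leaving out 1 library moved the WT change between -2.04, without WT M2 library 3, and -0.95, without WT M2 library 1.

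**Figure D5:**
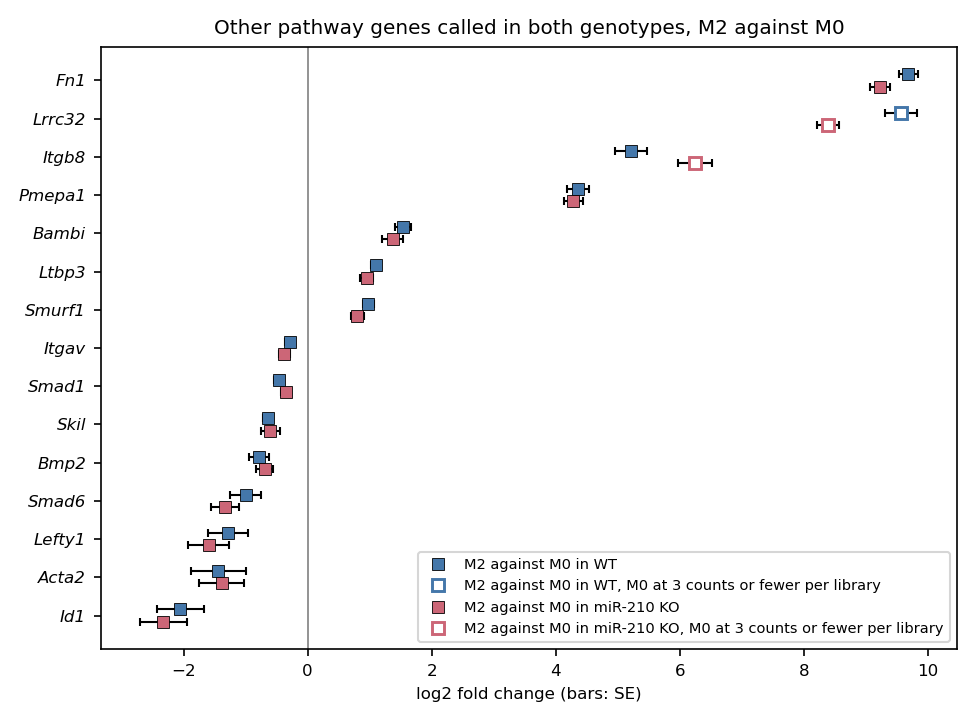
Log2 fold changes of M2 against M0 (x axis) with SE bars for 15 genes of the lists (y axis), in WT (blue) and KO (red). Open squares mark fits in which every M0 library had 3 counts or fewer, whose fold change is not a measured size; Fn1, Pmepa1 and Bambi are on the right of 0 in both genotypes and Id1, Acta2 and Lefty1 on the left.

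Markers of other cell types were read in the same libraries. Fibroblasts are rich in several of the target genes and the conditioned medium came from a fibroblast line. The 7 fibroblast markers summed to 10.9 normalized counts in WT M0, 18.7 in KO M0, 7.58 in WT M2 and 7.08 in KO M2, with Col1a2 the most abundant at an average of 4.74, and Col1a1 at 0 in both M2 groups. The sum was highest in KO M0, where Mmp14 was highest, and its part in that result was not tested. The 6 neutrophil markers summed to 13.3, 14.8, 33.9 and 12.8 in the same order, with S100a8 the most abundant at 15.7 and Ly6g at 0 throughout. The 5 erythroid markers summed to 13.8 in WT M0 and 14.1 in WT M2, led by Hbb-bs, and had no counts in any KO library. They had none in WT M0 library 3 and WT M2 library 1 either. Of 6 lymphocyte markers, 5 were at 0 in all libraries, and the 4 mast cell markers summed to at most 1.06 in a group. Zbtb46, a dendritic cell gene, went from 2.004 to 135 in WT and from 3.49 to 99.7 in KO with IL-4, while Flt3, Siglech and Xcr1 had no group mean above 3.74. S100a9 and Ngp, neutrophil genes with up to 8 counts in WT libraries, were at 0 in the KO libraries. S100a8 was not, with 17, 19 and 11 counts in KO M0 against 10, 5 and 6 in WT M0. In M2 it had 10, 17 and 9 counts in KO against 21, 33 and 29 in WT. The part of these trace transcripts in the genotype differences was not tested. In bulk RNA, fewer cells expressing a gene and less RNA per cell cannot be told apart.

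For 4 of the 9 genes, up to 5 genes with the most similar profile over the 12 libraries were found by Pearson's r of log2-transformed CPM values (library-scaled counts), among 14092 genes with an average of at least 10 counts. Gdf3 was most like Efhd2 (r = 0.944), Snx6 (0.941), Pira2 (0.94), Adss2 (0.937) and Eps8l1 (0.934). All 5 had their highest mean in KO M2, as Gdf3 did. Pira2 belongs to a family of near-identical genes whose reads can be split between copies, so its value is uncertain. Gdf15 was most like Card19 (0.98), Acss2 (0.979), Kcmf1 (0.976) and Basp1 (0.976). The genes most like Inhba had lower values, Gm26982 (0.858), Sos2 (0.839), Ahi1 (0.805), Eprs1 (0.794) and Gas2 (0.785). Tgfbi was most like Mir99ahg (0.991), Gm36963 (0.991), Gm37063 (0.989), Chic2 (0.987) and Gm37311 (0.984). The 3 Gm genes in this set lie on the same strand within the span of Mir99ahg (GRCm39, chr16:76970521-77586092, plus strand), so 4 of these 5 are 1 locus. These libraries share group and batch, so the correlations follow differences between the 4 groups and are given without a p-value.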

How the data were processed

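The deposited counts were made by the authors from stranded paired-end reads, which were trimmed (Trimmomatic), freed of PCR duplicates (Picard), aligned to GRCm39 (STAR) and counted per gene (featureCounts). The authors also deposited a signal, the same counts divided by size factors set for each pair of groups, used here only as an alternative for levels. The 9 genes, the pathway lists and the marker lists were chosen with earlier results of these data known. Columns were assigned to groups by name, and library numbers were not tied to samples.

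Counts were tested with edgeR 4.0.16 in R 4.3.3 (TMM, filterByExpr, quasi-likelihood test, Benjamini-Hochberg adjustment over all genes tested), on the 6 libraries of a pair or on all 12 for the interaction. The SE is the log2 fold change divided by the square root of F. Scripts were tested on simulated data. Alternatives were the DESeq2 1.42.0 Wald test, RLE normalization, no filter on low counts, a replicate block, a fit of all 12 libraries and each library left out. Genes of the lists were named when called between genotypes or in the interaction, and for polarization as the 3 largest increases and 3 largest decreases per list called in both genotypes. Genes named outside this rule were chosen after their values were seen. Names and 3′ UTRs came from GENCODE vM39 (56323 of 56941 identifiers matched). Floors cover counting error only. Results for some genes that this rule or these lists include are not reported here.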

Additional observations from a re-analysis of the deposited data

How the results depend on the processing

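The number of genes called between KO and WT depended on the processing. In M0 it was 65, against 210 with the DESeq2 Wald test, 532 without a filter, 284 with the library number as a replicate block, 248 in the fit of all 12 libraries, and 20 to 302 with 1 library left out. In M2 it was 137, against 360 without a filter, 289 with the replicate block, 60 in the fit of all 12 libraries, and 53 to 215 with 1 library left out. The interaction called 0 genes, against 74 with the DESeq2 Wald test, 341 without a filter, and 0 to 77 with 1 library left out. Of the 9 genes, 1 was called in M0, 2 without a filter and 2 with the replicate block (Gdf15 joined Gdf3), and 0 to 1 with 1 library left out. In M2 it was 2, then 3 without a filter and 3 with the replicate block (Smad7 joined, lower in KO), 1 in the fit of all 12 libraries and 1 to 2 with 1 library left out, and the interaction called 0, or 2 without a filter (Gdf15 and Smad7). Of all genes of the lists, 3 were called in M0, against 10 without a filter, 5 with the replicate block, 5 in the fit of all 12 libraries, and 0 to 5 with 1 library left out. In M2 4 were called, against 2 in the fit of all 12 libraries and 1 to 4 with 1 library left out, and the interaction called 0, against 1 with the DESeq2 Wald test, 7 without a filter and 0 to 1 with 1 library left out. The cause of these differences was not tested. Without a filter, and likewise with the DESeq2 Wald test, 26255 genes were tested in M0, 26165 in M2 and 28668 for the interaction. In the main fits these were 14089, 13980 and 14825. The calls over all genes changed with the setting too, so nothing particular to the 9 genes or the lists is read from these counts. For polarization the total counts of calls stayed within 1.5 times of the main ones under the alternatives run. By direction, the 4 of the 9 that rose in WT cells became 2 with the DESeq2 Wald test, 2 with the replicate block, where Gdf3 and Inhba were lost, and 2 to 5 with 1 library left out, while 3 fell under each. No named gene that was called changed direction. The replicate block also called Strap in M0. Same-numbered libraries deviated together in 2 of 12 pairs (correlations between -0.27 and 0.34), so the numbers were not taken to pair the samples. Both of these pairs were in KO against WT in M0, at 0.11 for library 1 and 0.34 for library 2. Whether same-numbered M0 libraries share an effect was not tested. With 3 libraries per group and at most 10167695 counts in a library, genes at a few counts, such as Mir210 and most ligands of the lists, allow no statement on small differences.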
